A study of Mus musculus with 134 samples.

Results

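The genes described here are 7 lysine demethylases that act on histone H3 at lysine 27 or lysine 4: Kdm6a, Kdm6b, Kdm5a, Kdm5b, Kdm5c, Kdm1a and Kdm1b. The rule lists them by name and sets no threshold on a measured value. All 7 were present among the 25209 genes counted in every bulk library, while 6 of the 7 were among the 18817 genes of the single-cell tables, which do not list Kdm6a. The cells were mouse embryonic stem cells (E14, strain 129/Ola) grown in serum with LIF. Their RNA was measured with SET-seq, a method that cuts and tags mRNA/cDNA hybrids with the transposase Tn5 while the chromatin of the same cells is profiled with an antibody. The bulk data comprised 54 libraries in 27 conditions of 2 libraries each. Nothing in the labels says that the 2 libraries of a condition came from separate cultures. The paper describes the 2 libraries of each temperature and time condition as biologically independent, and reports 2 independent experiments per knockout line. The p-values below measure the spread between libraries, which may be technical.

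The in vitro libraries were made from total RNA of untreated cells by tagmentation at 16 or 37 °C for 5, 10, 15 or 30 min, with 25, 50 or 100 ng/µl of Tn5, or from 300 ng, 3 ng or 30 pg of RNA. Ligation RNA-seq, prepared from poly-A RNA with random primers and ligated adaptors, was the conventional library type. SET-seq libraries held cytoplasmic RNA, since the nuclei are held back on beads. One set came from 10, 100, 1000 or 10000 untreated cells and has no antibody in its titles. These are called libraries without antibody here, although the titles do not say whether their nuclei were given one. The other sets came from 100, 1000 or 10000 cells with an antibody against H3K27me3 or H3K4me3. KO1 and KO2 were clones without an intact Aebp2 gene, which encodes a subunit of the H3K27 methyltransferase PRC2. They were made with different guides, each was 1 cell line, and 2 H3K27me3 SET-seq libraries were made from each without a cell number in the labels. The single cells were mESCs, labelled as treated with Wnt3a beads for 12 h, whose proximal daughter, in contact with the bead, and distal daughter were picked by hand.

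Methylation of lysine 27 by PRC2 is a mark of Polycomb-repressed genes, and trimethylation of lysine 4 marks active or poised promoters. The KDM6 enzymes Kdm6a (Utx, X-linked) and Kdm6b (Jmjd3) remove methyl groups from lysine 27, and the KDM5 enzymes Kdm5a, Kdm5b and Kdm5c (X-linked) remove the higher methylation states of lysine 4. These are iron- and oxoglutarate-dependent enzymes with a Jumonji domain, whereas the KDM1 enzymes Kdm1a (Lsd1) and Kdm1b (Lsd2) are flavin-dependent amine oxidases that act on mono- and dimethylated lysine 4. In embryonic stem cells many developmental promoters carry both marks, and these enzymes counteract the methyltransferases that write them.

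The guide sequences are shown because the knockout comparison rests on them. Each is given 5′ to 3′ with the adjacent PAM of the genome in capitals, and which guide gave which clone is not given in the sources used here.
Aebp2 sg#1: attcgctccatacatgtcgaTGG
Aebp2 sg#2: aacaggtgttcgtttgcttgTGG
In NCBIM37, the assembly called mm9, the first guide matched the plus strand of chromosome 6 at positions 140582382 to 140582401, inside an Aebp2 exon that runs from 140582210 to 140582417. The second matched positions 140586176 to 140586195, across the start of an Aebp2 exon from 140586181 to 140586288. Each guide had 1 match with a PAM on that chromosome.

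The demethylase genes are spread over the genome (mm9). Kdm6a lies on chromosome X at 17739701 to 17857062 and Kdm5c on chromosome X at 148667770 to 148713642. Kdm6b lies on chromosome 11 at 69212016 to 69229696, Kdm5a on chromosome 6 at 120314117 to 120394592, Kdm5b on chromosome 1 at 136456755 to 136529455, Kdm1a on chromosome 4 at 136106448 to 136158638 and Kdm1b on chromosome 13 at 47138868 to 47180648. Reads were counted over whole exons without regard to strand, so reads from an overlapping gene cannot be told apart. This touches 10.3% of the exon length of Kdm1b, shared with Dek, and 2.47% of that of Kdm5a, shared with Ccdc77.

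Counts assigned to genes ranged from 235040 to 21520982 per bulk library, and Rn45s, the ribosomal RNA precursor, took 1.54% to 84.6% of them. Rn45s was left out, and CPM below is computed from the remaining counts. Markers of embryonic stem cells were abundant in every set, and their summed level was 3505 to 4059 CPM in the knockout libraries and 5090 to 5571 CPM in wild-type H3K27me3 SET-seq. Hprt, a purine salvage enzyme that E14TG2a cells are known to lack, was at 0 to 2.14 CPM in the knockout libraries and at 0 to 0.195 CPM in the total RNA libraries used below for comparison with cytoplasmic RNA. It was at 291 to 485 CPM in wild-type H3K27me3 SET-seq, at 66.2 to 478 CPM in SET-seq without antibody and at 181 to 184 CPM in ligation RNA-seq, although all of these samples are labelled E14. A difference between cell stocks therefore cannot be told apart from the knockout, from the cytoplasmic fraction or from the library type in the comparisons that cross these sets.

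Among the 7 genes, Kdm1a and Kdm5b were the most abundant transcripts and Kdm1b the least. Levels were compared between genes as RPKM, the CPM per kilobase of exon. Kdm1a had the highest mean RPKM in 25 of 27 conditions and Kdm5b in the other 2, whereas Kdm1b was lowest in 27 of 27. The median RPKM over conditions was 212 for Kdm1a, 112 for Kdm5b, 19.6 for Kdm6b, 10.9 for Kdm5a, 9.60 for Kdm5c, 5.79 for Kdm6a and 1.41 for Kdm1b. The ends of this order were steadier than its middle. Kdm1a exceeded Kdm5b in 51 of 54 libraries, and Kdm5b exceeded Kdm6b in 54 of 54. Kdm6b exceeded Kdm5a in 42, Kdm5a exceeded Kdm5c in 39 and Kdm5c exceeded Kdm6a in 39, so that Kdm6b, Kdm5a, Kdm5c and Kdm6a changed places between libraries. Kdm6a exceeded Kdm1b in 51 of 54.

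**Figure D1:**
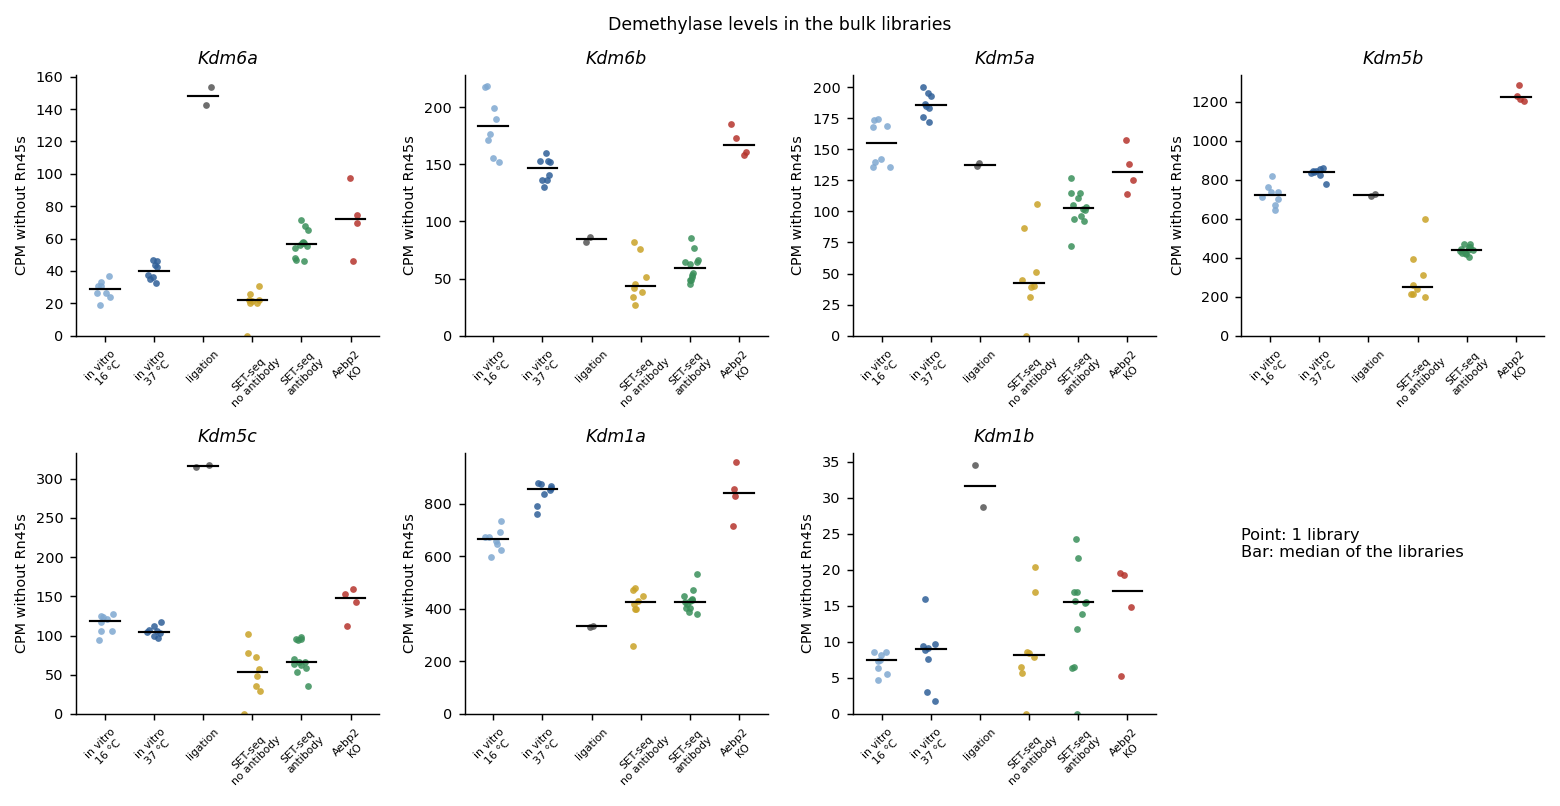
Expression of the 7 demethylase genes in CPM after removal of Rn45s (vertical axes, linear and starting at 0) in 6 sets of bulk libraries. Each point is 1 library and the bar is the median of the set. Kdm5b lies at 1202 to 1284 CPM in the 4 Aebp2 knockout libraries, and Kdm6a, Kdm5c and Kdm1b have their highest median in the 2 ligation libraries, at 148, 316 and 31.7 CPM.

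The knockout comparison asked how demethylase transcripts differ when a PRC2 subunit is lost. Both Kdm5b and Kdm6b were higher in the Aebp2 knockout libraries, as were Kdm1a and Kdm5c, while Kdm6a, Kdm5a and Kdm1b did not pass the test. By edgeR's quasi-likelihood test, 4 of the 7 were higher at a Benjamini-Hochberg adjusted p below 0.05 and 0 were lower, beside 22.5% higher and 24.5% lower among the 10495 genes tested. Their median log2 difference was 1.05, and that of all genes tested was -0.02.

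Of the lysine 4 demethylases, Kdm5b showed the greatest difference. It stood at 1228 and 1202 CPM in KO1 and at 1284 and 1215 CPM in KO2, against 401, 432 and 452 CPM as the lowest, median and highest of the 6 wild-type H3K27me3 libraries. The knockout and wild-type values did not overlap, with a log2 difference of 1.57 ± 0.11 (SE, edgeR, adjusted p = 9.96e-09). How many of all genes had groups without overlap was not counted, here or in the comparisons below. Overlap is therefore given only as a description of the values. Kdm1a, the catalytic subunit of the CoREST complex, stood at 830 and 717 CPM in KO1 and at 856 and 960 CPM in KO2, against 379, 431 and 450 CPM in the wild type. These groups did not overlap either, and the log2 difference was 1.05 ± 0.13 (SE, edgeR, adjusted p = 3.03e-06). Kdm5c was lower in level than both. It had 153 and 143 CPM in KO1 and 160 and 112 CPM in KO2 against 35.5, 64.4 and 98.2 CPM, again without overlap (log2 difference 1.14 ± 0.21, SE, edgeR, adjusted p = 2.36e-04). Kdm5c was higher in wild-type libraries of more cells, and the cell number of the knockout libraries is not in the labels. Against the 2 wild-type libraries of 10000 cells alone its log2 difference was 0.69 ± 0.19 (SE, edgeR, adjusted p = 0.00939), and Kdm5a then also passed, at 0.51 ± 0.19 (SE, edgeR, adjusted p = 0.0405). Kdm5a had 138 and 157 CPM in KO1, 114 and 125 CPM in KO2, and 94.3, 109 and 127 CPM in the wild type. Its groups overlapped and its log2 difference of 0.34 ± 0.15 did not pass (SE, edgeR, adjusted p = 0.0684). Kdm1b, at 19.6, 19.3, 14.9 and 5.34 CPM in the knockout libraries, lay within the wild-type range of 0 to 24.2 CPM, with a log2 difference of 0.22 ± 0.70 (SE, edgeR, adjusted p = 0.823). The 0 is a wild-type library of 100 cells, where a count of 0 allows up to 0.496 CPM.

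The lysine 27 demethylases differed from each other in this comparison. Kdm6b had 185 and 173 CPM in KO1 and 161 and 158 CPM in KO2, against 44.8, 59.8 and 85.3 CPM in the wild type, without overlap and with a log2 difference of 1.53 ± 0.16 (SE, edgeR, adjusted p = 5.5e-07). Kdm6a had 69.7 and 97.3 CPM in KO1 and 74.6 and 46.3 CPM in KO2, against 46.3, 56.4 and 57.7 CPM in the wild type. The lowest knockout library reached down to the lowest wild-type library, and the log2 difference of 0.43 ± 0.18 did not pass (SE, edgeR, adjusted p = 0.0570). Kdm6a passed without KO2 replicate 2 (0.54, edgeR, adjusted p = 0.0190), without wild-type replicate 1 of 100 cells (0.47, edgeR, adjusted p = 0.0411) and without replicate 2 (0.46, edgeR, adjusted p = 0.0408), and the last also brought Kdm5a past the threshold (0.42, edgeR, adjusted p = 0.0186). DESeq2 called both, Kdm6a with an adjusted p of 0.0358 and Kdm5a of 0.0380.

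The target gene itself was incompletely reduced in RNA. Aebp2 was at 15.7 and 15.0 CPM in KO1 and at 49.7 and 30.2 CPM in KO2, against 34.7 to 76.0 CPM in the wild type, so that the 2 KO2 libraries reached into or just under the wild-type range. The log2 difference for Aebp2 was -0.88 ± 0.31 (SE, edgeR, adjusted p = 0.0252), and a guide-made lesion need not lower the RNA. The paper examined the clones by Western blot and Sanger sequencing, which were not analysed here. The knockout and wild-type libraries also differed in other ways. Rn45s took 48.8% to 56.7% against 21.9% to 29.7% of counts. Of 8 stem cell markers 4 were lower, Klf4 most (-2.44). The summed neural markers were at 28.8 to 110 CPM against 17.1 to 23.2 CPM, with Nes higher and Sox1 not. Trophoblast markers summed to 40.6 to 63.6 against 19.4 to 48.9 CPM with Elf5 at 0 in the knockout libraries, primitive endoderm markers to 4.91 to 7.95 against 1.49 to 8.97 CPM, and fibroblast markers to 0 to 11.9 against 0 to 9.61 CPM with Dcn and Lum at 0 in both. The part of these in the demethylase differences was not tested. In bulk samples, more RNA per cell and more cells of a type cannot be told apart.

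Most of the differences ended when the knockout libraries were set against in vitro total RNA, which like them had almost no Hprt. Against those 4 libraries, 2 of the 7 were higher and 0 lower, beside 24.6% higher and 27.5% lower of the 8655 genes tested. Kdm5b was still higher, by 0.67 ± 0.15 on the log2 scale (SE, edgeR, adjusted p = 0.00247), and Kdm6a by 1.58 ± 0.39 (SE, edgeR, adjusted p = 0.00396). Kdm5a turned to the other direction, at -0.36 ± 0.18 (SE, edgeR, adjusted p = 0.103), and Kdm1b was at 1.23 ± 0.50 (SE, edgeR, adjusted p = 0.0537). For Kdm1a the log2 difference was 0.10 ± 0.17 (SE, edgeR, adjusted p = 0.644), for Kdm6b 0.07 ± 0.19 (SE, edgeR, adjusted p = 0.774) and for Kdm5c 0.38 ± 0.18 (SE, edgeR, adjusted p = 0.0866). The knockout libraries are cytoplasmic RNA and the in vitro libraries total RNA, so this comparison crosses the RNA fraction where the first crosses the Hprt level.

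Other chromatin genes of fixed lists showed the same directions in part. Of 12 tested other histone demethylases, 9 were higher and 1 lower in the knockout, with a median log2 difference of 1.34. Jmjd1c, of the KDM3 family, was higher by 2.13 and Kdm4a, which removes lysine 9 and lysine 36 methylation, by 1.89. Of 11 tested partners of the demethylases, 9 were higher and 1 lower. Among them Phf21a, a CoREST component that reads unmethylated lysine 4, was higher by 1.98 and Rcor2, a CoREST scaffold, by 1.60. Of 12 tested members of the lysine 4 methyltransferase complexes, 6 were higher and 2 lower, with Kmt2d at 2.84 and Kmt2b at 2.22. Of the PRC2 core 1 of 6 was higher, Rbbp7 at 0.97, and 0 lower.

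Between the clones, 0 of the 7 demethylase genes differed, beside 5.2% higher and 4.83% lower in KO1 among the 8551 genes tested. The nearest was Kdm1a, whose log2 difference of KO1 from KO2 was -0.33 ± 0.13 (SE, edgeR, adjusted p = 0.0984). Without KO2 replicate 1 it became -0.44 and passed (edgeR, adjusted p = 0.00249). Kdm6a differed by 0.37 ± 0.26 and Kdm1b by 0.86 ± 0.53 (SE), with edgeR adjusted p-values of 0.418 and 0.341. The other members had log2 differences of 0.20 for Kdm5a, 0.07 for Kdm6b, 0.03 for Kdm5c and -0.14 for Kdm5b (edgeR, adjusted p = 0.575, 0.856, 0.946 and 0.514). Aebp2 differed more, by -1.46 ± 0.39 (SE, edgeR, adjusted p = 0.0130). In the other lists, Suz12 of PRC2 and the methyltransferases Kmt2a and Kmt2c were higher in KO1, at log2 differences of 0.59, 0.82 and 0.82, and Hdac1, which partners with Kdm1a in CoREST, was lower, at -0.89. Cell type markers also differed between the clones. The summed stem cell markers were at 3983 to 4059 CPM in KO1 and 3505 to 3596 CPM in KO2, with Sox2 (1.198) and Nanog (0.66) higher of 8 tested, and neural markers at 91.2 to 110 CPM and 28.8 to 36.5 CPM, with Nes higher by 1.69. Trophoblast markers summed to 40.6 to 46.1 CPM and 59.6 to 63.6 CPM, with Krt8 at -0.91 and Elf5 at 0 in both. Primitive endoderm markers were at 4.91 to 6.42 and 5.34 to 7.95 CPM, and fibroblast markers at 1.07 to 4.91 and 0 to 11.9 CPM with Dcn and Lum at 0 in both. The part of these in the clone differences was not tested.

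**Figure D2:**
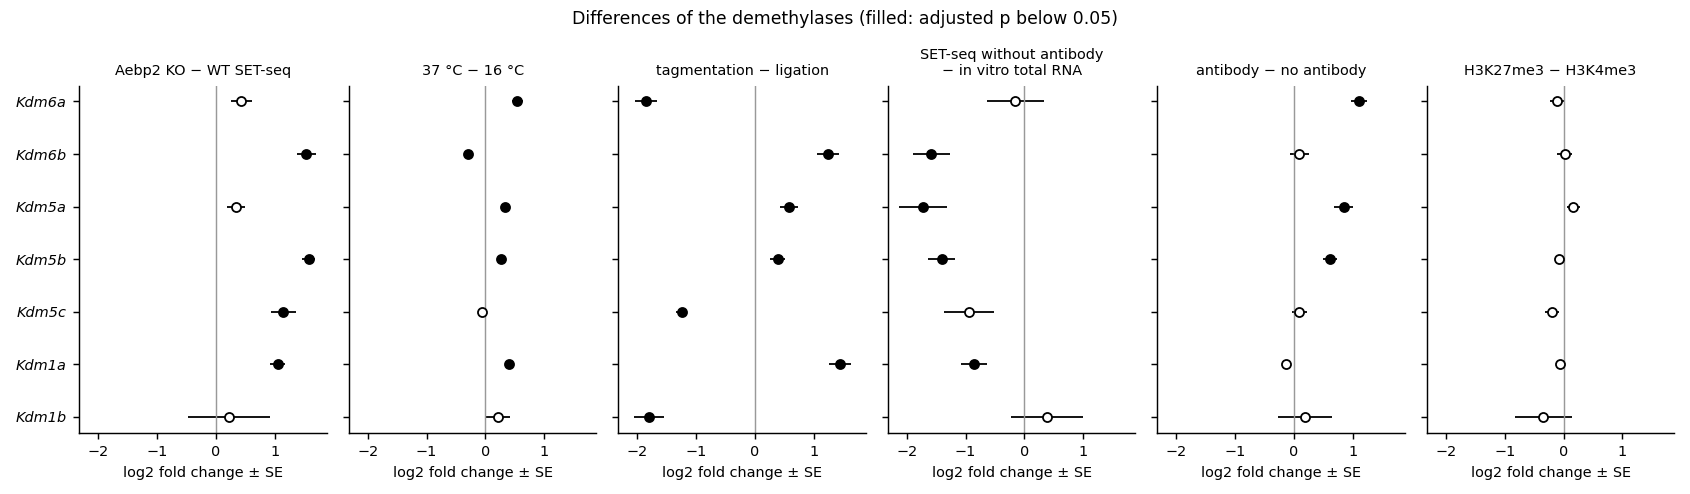
Log2 difference of each demethylase gene in 6 comparisons of bulk libraries, with bars of 1 SE from edgeR's quasi-likelihood fit; filled points had an adjusted p below 0.05. In the knockout comparison Kdm5b and Kdm6b lie at 1.57 and 1.53, and in the comparison of tagmentation with ligation Kdm6a, Kdm1b and Kdm5c lie below -1.

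The in vitro series asked how the temperature of tagmentation shapes the library. At 37 °C, 4 of the 7 demethylase transcripts were higher than at 16 °C and 1 was lower, where 32% of the 11788 genes tested were higher and 31.4% lower. The members' median log2 difference was 0.27. Kdm1a was at a lowest, median and highest of 762, 857 and 879 CPM in the 8 libraries at 37 °C and of 600, 666 and 735 CPM in the 8 at 16 °C. It was the one member whose temperature groups did not overlap, with a log2 difference of 0.40 ± 0.05 (SE, edgeR with time as a factor, adjusted p = 4.81e-08). Kdm6a had 32.7, 40.1 and 46.8 CPM against 19.1, 28.7 and 36.7 CPM, a log2 difference of 0.54 ± 0.09 (SE, edgeR, adjusted p = 9.61e-06). Kdm6b, its relative, was lower at 37 °C. It had 129.99, 147 and 160.4 CPM against 152, 183 and 219 CPM, a log2 difference of -0.29 ± 0.08 (SE, edgeR, adjusted p = 0.00134). Kdm5a, with medians of 186 and 155 CPM, differed by 0.33 ± 0.06 (SE, edgeR, adjusted p = 2.18e-05), and Kdm5b, with medians of 841 and 721 CPM, by 0.27 ± 0.05 (SE, edgeR, adjusted p = 4.91e-05). For these the temperature groups overlapped in part. Kdm5c, with medians of 105 and 119 CPM, and Kdm1b, with 9.05 and 7.43 CPM, did not pass (edgeR, adjusted p = 0.452 and 0.414).

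Rn45s took 33.0% to 40.7% of counts at 37 °C and 11.8% to 25.1% at 16 °C, and its part in these differences was not tested. With the 5 min libraries alone Kdm1a was the single member that passed, at 0.42 (edgeR, adjusted p = 0.00491), and Kdm6b was at 0.03. In that fit 3367 of the 10927 genes tested passed. No member passed the test of whether the temperature difference changed with time, which called 109 of 12297 genes; the nearest was Kdm6b (edgeR, unadjusted p = 0.00371, adjusted p = 0.173). In the fixed lists, 5 of 6 PRC2 core genes were higher at 37 °C, with Suz12 at 1.69 and Eed at 0.93. Of the lysine 4 methyltransferase complexes 4 of 12 were higher and 3 lower, with Dpy30 at 0.60 and Wdr5 at -0.69.

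Set against ligation RNA-seq, all 7 demethylase genes differed in the 16 in vitro tagmentation libraries, 4 higher and 3 lower, where 33.4% of the 12880 genes tested were higher and 33.1% lower. The lysine 27 demethylases went opposite ways. Kdm6a stood at 154 and 142 CPM in the ligation libraries and at a median of 34.3 CPM after tagmentation (log2 difference -1.86 ± 0.19, SE), while Kdm6b stood at 86.6 and 82.3 CPM and at a median of 155 CPM (1.24 ± 0.19, SE). Neither pair of groups overlapped. The flavin-dependent pair also split, with Kdm1a at 336 and 332 CPM by ligation and a median of 748 CPM by tagmentation (1.44 ± 0.19, SE), and Kdm1b at 28.8 and 34.5 CPM against a median of 7.95 CPM (-1.80 ± 0.26, SE). Of the KDM5 genes, Kdm5c was lower after tagmentation, 315 and 317 CPM against a median of 107 CPM (-1.25 ± 0.10, SE). Kdm5a, 139 and 136 CPM against a median of 174 CPM, was higher by 0.58 ± 0.16 (SE, edgeR, adjusted p = 0.00262), and Kdm5b, 726 and 713 CPM against a median of 797 CPM, by 0.38 ± 0.13 (SE, edgeR, adjusted p = 0.0158). Both of these groups overlapped.

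The 2 ligation libraries carry this comparison. Kdm5b no longer passed without ligation replicate 1 (0.36, edgeR, adjusted p = 0.129) or replicate 2 (0.33, edgeR, adjusted p = 0.156), nor did it without a filter on low counts (0.33, edgeR, adjusted p = 0.0524), and Kdm5a no longer passed without replicate 2 (0.53, edgeR, adjusted p = 0.0574). Of 13 other demethylases tested 1 was higher and 7 lower, among them Kdm4a at -2.73 and the X-linked Kdm6a's Y-linked relative Uty at -2.51. Of 11 partners 3 were higher and 3 lower, with Hmg20b, a CoREST subunit, at 1.79 and Glyr1, a cofactor of Kdm1b, at -2.16.

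The comparison of SET-seq without antibody and in vitro total RNA, both tagmentated at 37 °C for 5 min, set cytoplasmic RNA against total RNA. Demethylase transcripts were lower in the cytoplasmic libraries where they differed: 4 of 7 were lower and 0 higher, beside 12.7% lower and 12.5% higher of the 11468 genes tested. Their median log2 difference was -0.94, and that of all genes was 0.04. With DESeq2's size factors the median of all genes became -0.15 and the higher calls went from 1432 of 2884 to 1122 of 3063 genes, and 5 members were then lower.

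Kdm5a showed the largest difference of the 7 in size. It was at a lowest, median and highest of 0, 42.5 and 106 CPM in the 8 SET-seq libraries and at 132, 176 and 200.2 CPM in the 4 total RNA libraries, a log2 difference of -1.73 ± 0.41 (SE, edgeR, adjusted p = 0.00397). Kdm6b had 26.6, 43.3 and 82.4 CPM against 132, 148 and 197 CPM, a log2 difference of -1.58 ± 0.32 (SE, edgeR, adjusted p = 0.00104). Kdm5b had 199, 249 and 598 CPM against 690.1, 769 and 825 CPM (-1.41 ± 0.22, SE, edgeR, adjusted p = 1.18e-04). For each of these, and for Kdm1a, the groups did not overlap, though the share of all genes without overlap was not counted. Kdm1a had 260.3, 425 and 481 CPM against 745, 776 and 792 CPM (-0.87 ± 0.22, SE, edgeR, adjusted p = 0.00696), and did not pass against the 37 °C libraries of the temperature series alone (-0.86, edgeR, adjusted p = 0.0695). Kdm5c, at medians of 53.0 and 109 CPM, differed by -0.94 ± 0.42 and did not pass (SE, edgeR, adjusted p = 0.107). It passed without replicate 2 of the 10 cell libraries (-0.90, edgeR, adjusted p = 0.0111), which had 188275 counts without Rn45s, no read of Kdm6a, Kdm5a, Kdm5c or Kdm1b, and a limit of 15.9 CPM for a count of 0. Kdm6a (-0.16 ± 0.48) and Kdm1b (0.38 ± 0.61) did not pass (SE, edgeR, adjusted p = 0.841 and 0.686).

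Hprt had the largest difference of all genes tested in this comparison, 11.56 on the log2 scale. Of 8 stem cell markers 3 were higher in the cytoplasmic libraries, Nanog (1.59), Esrrb (1.496) and Zfp42 (0.95), and 2 lower, Sox2 (-2.26) and Klf4 (-1.25), and their sum was at 3514 to 5869 against 4286 to 4663 CPM. Neural markers summed to 0 to 22.3 against 34.5 to 52.7 CPM, with Nes at -1.90, and trophoblast markers to 5.31 to 106 against 33.1 to 48.5 CPM, with Krt8 at 1.38, Cdx2 at -2.71 and Elf5 at 0 in the cytoplasmic libraries. Primitive endoderm markers summed to 1.38 to 15.9 against 4.39 to 13.3 CPM and fibroblast markers to 0 to 8.88 against 0 to 3.29 CPM. The part of these in the demethylase differences was not tested. Of the other lists, 6 of 13 tested demethylases were lower and 0 higher, with Kdm7a at -2.56 and Phf8, which removes lysine 9 and lysine 20 methylation, at -1.86. Of 11 partners 5 were lower and 0 higher, with Phf21a at -2.24 and Rcor3 at -1.97. Of the PRC2 core 3 of 6 were lower, with Suz12 at -1.56 and Ezh1 at -1.35, and of the lysine 4 methyltransferase complexes 3 of 12 were lower and 3 higher, with Kmt2a at -2.23 and Kmt2c at -1.77.

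In the SET-seq protocol the supernatant with the RNA is taken off the bead-bound nuclei, and the antibody is given to the nuclei. The comparisons by antibody set groups of libraries against each other, and the part of the antibody in their differences was not tested. Between the antibodies no difference passed: 0 of the 7 demethylase genes and 0% of the 11616 genes tested differed between H3K27me3 and H3K4me3 libraries, higher or lower, by edgeR, with 361 genes at an unadjusted p below 0.05, and DESeq2 also called 0, with 419 at an unadjusted p below 0.05. The members' log2 differences of H3K27me3 from H3K4me3 were -0.34 for Kdm1b, -0.19 for Kdm5c, -0.12 for Kdm6a, -0.07 for Kdm5b, -0.05 for Kdm1a, 0.02 for Kdm6b and 0.17 for Kdm5a (edgeR, adjusted p = 0.996 for each). A difference that misses the threshold does not show that the levels were equal.

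Libraries with an antibody differed from libraries without one. At matched cell numbers of 100 to 10000, Kdm6a, Kdm5a and Kdm5b were higher with an antibody and 0 members were lower, beside 20.5% higher and 20.7% lower of the 11709 genes tested. Kdm6a was at 46.3, 56.4 and 71.6 CPM as lowest, median and highest of 12 antibody libraries and at 20.5, 22.0 and 30.4 CPM in the 6 without. Its groups did not overlap and the log2 difference was 1.11 ± 0.14 (SE, edgeR, adjusted p = 6.11e-07). Kdm5a had 72.3, 103 and 127 CPM against 31.1, 48.1 and 106 CPM (0.84 ± 0.16, SE, edgeR, adjusted p = 1.35e-04), and Kdm5b had 401, 437 and 470.2 CPM against 199, 224 and 598 CPM (0.61 ± 0.13, SE, edgeR, adjusted p = 3.57e-04). Without antibody the highest Kdm5b value, 598 CPM, was in replicate 2 of 1000 cells, where Kdm5a was at 86.9 CPM. That library held only 195539 counts without Rn45s. The highest Kdm5a value, 106 CPM, was in replicate 2 of 100 cells. Kdm6b, Kdm5c, Kdm1a and Kdm1b had log2 differences between -0.13 and 0.18 and did not pass. The 2 sets also differed in other genes. Krt8, the 1 trophoblast marker tested, was lower with an antibody, at -1.27 on the log2 scale. Summed trophoblast markers were at 19.4 to 63.1 CPM with an antibody. Over all libraries without one, a wider set than the one compared, they were at 5.31 to 106 CPM. Of 8 stem cell markers, Sox2 (0.93) and Nanog (0.81) were higher with an antibody and 0 were lower. Hprt was also higher (0.83), at 273 to 485 CPM against 66.2 to 384 CPM, as was Aebp2 (0.55). Rn45s took 15.2% to 34.2% against 12.6% to 22.0% of counts. The part of these in the demethylase differences was not tested.

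Of the PRC2 core 5 of 6 genes were higher with an antibody and 0 lower, with Suz12 at 1.21 and Ezh1 at 0.70. Of the other demethylases 4 of 13 were higher and 2 lower, with Uty at 1.31 and Kdm3a at 1.02. Of the lysine 4 methyltransferase complexes 1 of 12 was higher, Kmt2c at 1.12, and 1 lower, Wdr5 at -0.61.

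Kdm5c followed the number of cells in the SET-seq libraries. This pattern was seen in the levels before it was tested, so the test describes it and is no independent check. With H3K27me3 antibody Kdm5c was at 35.5 and 53.4 CPM for 100 cells, 62.5 and 66.2 CPM for 1000 and 96.2 and 98.2 CPM for 10000. With H3K4me3 antibody it was at 63.2 and 58.7, then 69.8 and 66.8, then 94.1 and 95.03 CPM, and without antibody at 48.2 and 36.2, then 57.7 and 102, then 72.5 and 78.2 CPM. In each set both libraries of 10000 cells lay above both of 100 cells. Over the 18 libraries, the log2 difference of 10000 from 100 cells was 0.73 ± 0.14 for Kdm5c (SE, edgeR with antibody as a factor, adjusted p = 7.92e-04) and 0.55 ± 0.18 for Kdm6b (SE, edgeR, adjusted p = 0.0294). Thus 2 of 7 members were higher and 0 lower, beside 8.98% higher and 10.1% lower of the 11709 genes tested. Kdm5a had the largest difference in the other direction, -0.46 ± 0.17 (SE, edgeR, adjusted p = 0.0614), and Kdm1a was at 0.05 ± 0.09 (SE, edgeR, adjusted p = 0.751). Kdm5b was at -0.27 ± 0.14, Kdm6a at -0.18 ± 0.15 and Kdm1b at 0.79 ± 0.52 (SE, edgeR, adjusted p = 0.202, 0.417 and 0.308). In the H3K27me3 libraries Kdm1b went from 6.43 and 0 CPM at 100 cells to 16.9 and 13.9 CPM at 1000 and 24.2 and 21.6 CPM at 10000. In the H3K4me3 libraries it was at 6.48 and 11.8 CPM and ended at 15.7 and 15.6 CPM, and without antibody it showed no such order, at 7.96 and 16.9 CPM and then 5.63 and 8.46 CPM.

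**Figure D3:**
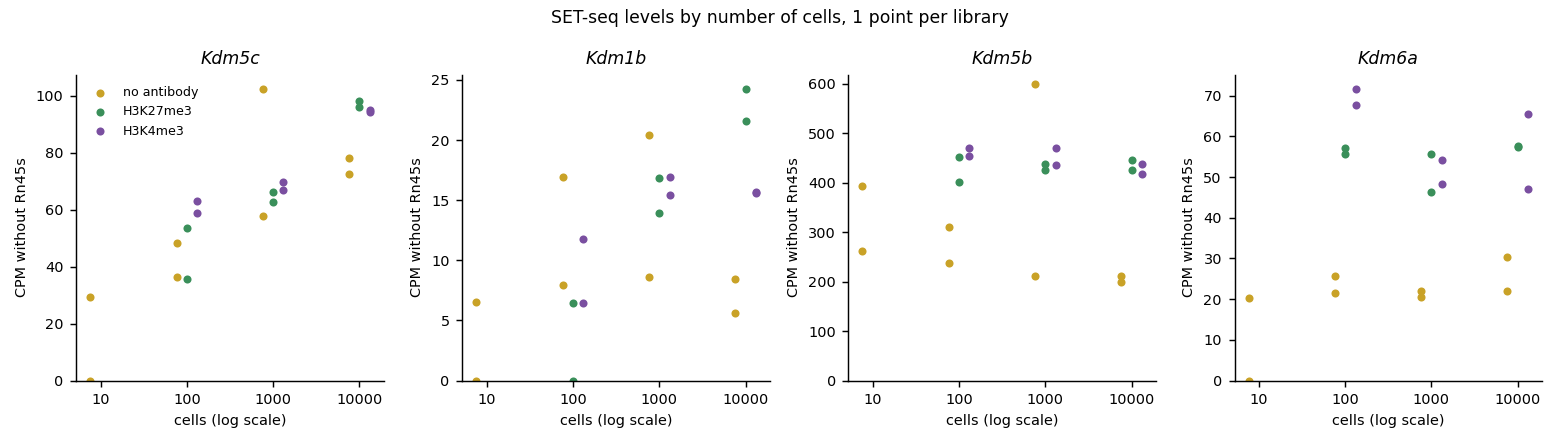
CPM of Kdm5c, Kdm1b, Kdm5b and Kdm6a against the number of cells in the library (logarithmic axis), with 1 point per SET-seq library and colours for no antibody, H3K27me3 and H3K4me3. Kdm5c is higher in every library of 10000 cells, 72.5 to 98.2 CPM, than in any of 100 cells, 35.5 to 63.2 CPM, and Kdm6a without antibody lies below Kdm6a with either antibody from 100 cells up.

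The libraries with different amounts of Tn5 or RNA are given as values, and no test was run on them. With 25, 50 and 100 ng/µl of Tn5, Kdm1a was at 653, 696 and 715 CPM in replicate 1 and 669, 622 and 613 CPM in replicate 2. Kdm5b was at 771, 781 and 731 CPM in replicate 1 but at 391, 379 and 374 CPM in replicate 2, and Kdm5a at 170, 148 and 138 CPM against 61.5, 58.0 and 63.2 CPM. For Kdm5b, Kdm5a and Kdm6a the replicates differed more than the amounts of enzyme did. Replicate 1 held 3426759 to 7328909 counts without Rn45s and replicate 2 held 14858896 to 16888686, and the part of depth in this was not tested. With less RNA, Kdm5b was at 761 and 690.1 CPM from 300 ng, 935 and 925 CPM from 3 ng and 1022 and 906 CPM from 30 pg, and Kdm5a at 156 and 132, 241 and 238, and 203 and 247 CPM. Kdm6a had 14.2 and 11.9 CPM from 300 ng, 34.7 and 42.9 CPM from 3 ng, and 29.5 and 0 CPM from 30 pg, where the 0 allows up to 9.27 CPM. From 30 pg the replicates were at 98.03 and 250.4 CPM for Kdm5c and at 60.5 and 263 CPM for Kdm6b.

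In the single-cell data, 545 of 752 cells passed the filter of over 1000 and under 5000 genes, 335 of 384 from 10 H3K27me3 experiments and 210 of 368 from 6 H3K4me3 experiments. Passing cells held 5364 to 2020096 reads with a median of 123722, counted as reads and not as molecules. The 96 cell barcodes recur, with 80 used in several experiments, but no barcode occurred more than once within an experiment and no cells had identical counts. H3K27me3 experiments 8, 9 and 10 stood apart. Their 165 passing cells had 10862830 to 26614024 reads per experiment but only 0.704 to 3.13 CPM of summed stem cell markers and 0.411 to 1.84 CPM of Actb. Of these 165 cells, 153 belonged to the cluster that the study calls Mix. The other 7 H3K27me3 experiments had 535 to 3662 CPM of the markers and 393 to 2359 CPM of Actb. The H3K4me3 experiments had 341 to 9938 CPM of the markers and 9.54 to 3097 CPM of Actb. The lowest Actb was in H3K4me3 experiment 1, which had 4 passing cells and 0 reads of Kdm5b and of Kdm1a in them. That experiment was kept, and results are given with and without H3K27me3 experiments 8 to 10.

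Kdm5b and Kdm1a were the demethylases most often seen in single cells, as they were the most abundant in bulk. Of all 545 passing cells, 40.2% had a read of Kdm5b, 38.5% of Kdm1a, 12.7% of Kdm5a, 10.1% of Kdm5c, 6.06% of Kdm6b and 2.02% of Kdm1b. In the 380 cells without experiments 8 to 10 the shares were 56.3%, 53.4%, 18.2%, 14.5%, 8.16% and 2.63% in the same order of genes. No read of any of the 6 genes was found in 224 of 545 cells (41.1%), or in 74 of the 380 cells (19.5%), and the most that a cell held was 5 of the genes, in 4 cells.

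Cells differed in depth, so each was also thinned at random to 20000 reads. A read of Kdm5b then remained in 25.8% of 124 cells of the 7 H3K27me3 experiments (95% exact Clopper-Pearson interval 18.4% to 34.4%, with 46 shallower cells left out) and in 34.4% of 209 cells of the H3K4me3 experiments (28.03% to 41.3%, with 1 left out). For Kdm1a the shares were 23.4% (16.3% to 31.8%) and 31.6% (25.3% to 38.3%). These intervals pool cells that share an experiment and cover counting error only, so they are no test between antibodies or positions, and reads from amplified cDNA are not independent molecules. By experiment, Kdm5b ran from 0.923 to 207 CPM in the 7 H3K27me3 experiments and from 0 to 315 CPM in the 6 H3K4me3 experiments, and Kdm1a from 1.74 to 290 CPM and from 0 to 350 CPM. For both genes the 0 was H3K4me3 experiment 1, with 4 passing cells. Over all 10 H3K27me3 experiments the thinned shares were 11.5% for Kdm5b and 10.8% for Kdm1a. By position in the same thinned cells without experiments 8 to 10, Kdm5b was seen in 33.1% of 166 proximal cells (26.03% to 40.8%) and 29.3% of 167 distal cells (22.6% to 36.9%), and Kdm1a in 25.9% (19.4% to 33.3%) and 31.1% (24.2% to 38.8%). Unthinned, over 193 proximal and 187 distal cells with the 27 and 20 shallower ones included, the shares were 55.4% and 57.2% for Kdm5b. For Kdm1a they were 52.3% and 54.5%.

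The central question of the single-cell data was whether the daughter near the Wnt3a source differs from the distal one. Counts were summed by experiment and position in the 14 experiments with at least 3 passing cells at both. By edgeR with the experiment as a block, 0 of the 6 demethylase genes differed, beside 0% higher and 0% lower of the 13086 genes tested. At an unadjusted p below 0.05 there were 1194 genes, and DESeq2 called 52 genes and no member. Kdm5b had a log2 difference of proximal from distal of 0.45 ± 0.79, Kdm1a of -0.47 ± 0.66, Kdm5c of 0.96 ± 1.26, Kdm5a of 0.10 ± 1.64 and Kdm6b of -0.32 ± 1.24 (SE). These standard errors are as large as the differences or larger, except for Kdm1b, so that sizeable differences were not detectable with these cells. The median of all genes was 0.11 here and -0.01 with DESeq2's size factors, so differences this small depend on the scaling. Without experiments 8 to 10, Kdm5b was at 0.20, Kdm1a at -0.84 ± 0.62 (SE), Kdm5c at 0.96 and Kdm6b at -0.997, and 0 of 11463 genes were called.

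Experiments differed in direction. Kdm5b was higher in the proximal cells in 4 of 5 H3K4me3 experiments, at 65.5 to 520.4 CPM against 54.7 to 183 CPM in the distal cells. In the H3K27me3 experiments it was higher proximally in 5, higher distally in 3 and equal in 1, but in 3 and 3 without experiments 8 to 10, which held at most 5 reads of it each. Kdm1a was higher proximally in 2 and distally in 3 H3K4me3 experiments, and in 5 and 3 of the H3K27me3 experiments with 1 equal, or in 3 and 3 without experiments 8 to 10, which held at most 9 reads of it each. No member passed the test of whether the position difference depended on the antibody.

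Kdm1b had the largest fitted difference, 3.33 ± 1.24, which did not pass over all genes (SE, edgeR, unadjusted p = 0.0133, adjusted p = 0.383), and 3.41 ± 1.44 without experiments 8 to 10 (SE, edgeR, adjusted p = 0.462). It rests on few cells. Proximal cells held 360 reads and distal cells 3, but 332 of the 363 reads (91.5%) were in 1 cell of H3K4me3 experiment 2. In the 5 H3K4me3 experiments the proximal and distal reads were 332 and 1, 1 and 0, 2 and 0, 20 and 1, and 3 and 0, higher proximally in 5 of 5. The 9 H3K27me3 experiments held 2 proximal reads and 1 distal read. Kdm1b was higher proximally in 2 of them, distally in 1 and equal in 6. Without experiments 8 to 10 these were 1, 1 and 4. One cell also held 54.8% of all reads of Kdm5a, 49.9% of Kdm6b and 44.8% of Kdm5c, whereas the top cell held 10.1% for Kdm5b and 9.60% for Kdm1a.

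**Figure D4:**
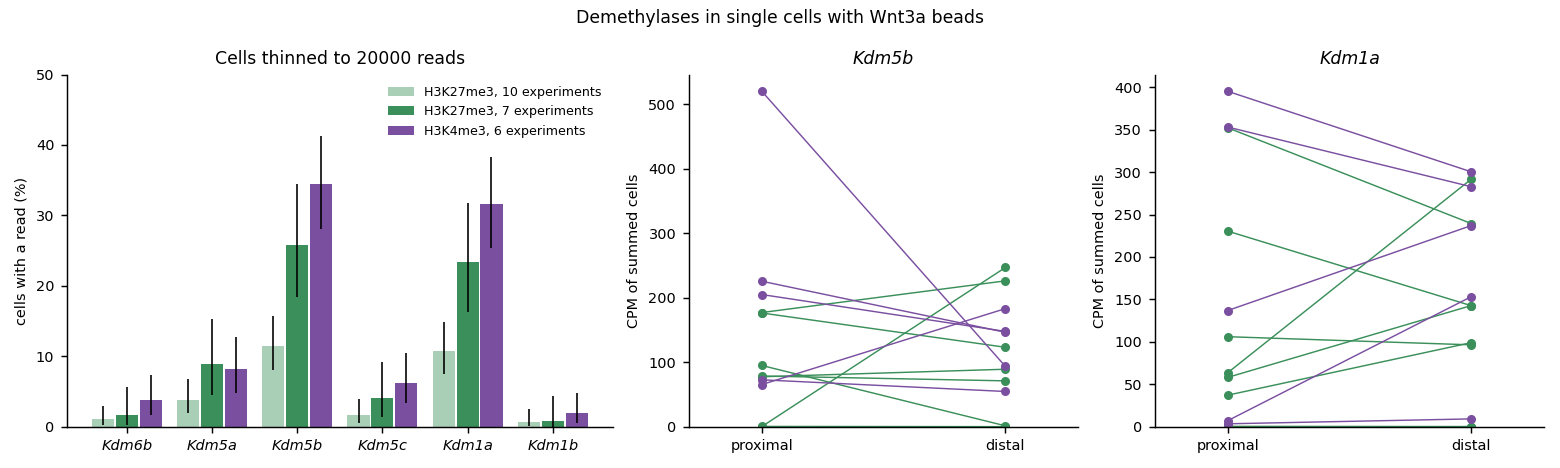
Left, percent of passing single cells with at least 1 read of each gene after thinning to 20000 reads, with 95% exact binomial intervals, in all 10 H3K27me3 experiments, in the 7 without experiments 8 to 10, and in the 6 H3K4me3 experiments. Middle and right, CPM of Kdm5b and Kdm1a in summed proximal and distal cells, 1 line per experiment (green H3K27me3, purple H3K4me3); lines run in both directions, and Kdm5b falls from proximal to distal in 4 of 5 H3K4me3 experiments.

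The study's clusters were made from the expression of the same cells, so levels in them are a description. Kdm5b had a read in 27.1% of 291 Mix cells, 56.4% of 133 Proxi cells and 53.7% of 121 Dista cells, and Kdm1a in 25.1%, 53.4% and 54.5%. The Mix cluster holds 153 of the 165 cells of experiments 8 to 10. In the other experiments, Kdm5b had a read in 55.1% of 138 Mix cells, 58.4% of 125 Proxi cells and 55.6% of 117 Dista cells. For Kdm1a these shares were 47.8%, 56.8% and 56.4%.

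Across the 27 bulk conditions the demethylase genes did not share 1 pattern. As a description over conditions that share RNA sources and depth, Pearson's r of log2(mean CPM + 1) was 0.81 between Kdm6b and Kdm1a, 0.79 between Kdm5a and Kdm5b, 0.79 between Kdm6b and Kdm5b and 0.72 between Kdm6a and Kdm1b. Between the 2 lysine 27 demethylases Kdm6a and Kdm6b it was -0.11, and between Kdm6b and Kdm1b -0.26. Among 8747 genes with a mean of at least 10 CPM, the patterns most like that of Kdm5b were those of Tcf4 (0.95), Scaf11 (0.93) and Chd7 (0.93). Those most like Kdm1a were Lef1 (0.90), Eif3c (0.89) and Pygl (0.88). Kdm5a was most like Eea1 (0.95), Usp28 (0.94) and Cntrl (0.94), and Kdm5c most like Amer1, Srebf2 and Ncoa6 (0.94 each). Kdm6a was most like Rc3h2 (0.94), 2410141K09Rik (0.93) and Ints2 (0.92), Kdm6b most like Phf21a, Rreb1 and Fam169b (0.94 each), and Kdm1b most like Zfp141 (0.88), Zfp930 (0.85) and Btbd10 (0.85).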

How the data were processed

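Gene counts were deposited by the authors. Bulk reads were trimmed with Trim Galore 0.6.4, aligned to mm9 with STAR 2.5.4b and counted over exons of refGene with featureCounts 2.0.0 or 2.0.1, per the submitters' notes and the file headers, without strand. Single-cell counts deposited by the authors were made with zUMIs from exons and introns and were reads. Counts without Rn45s were tested here with edgeR 4.0.16 (quasi-likelihood, TMM, filterByExpr, R 4.3.3), with p-values adjusted by Benjamini-Hochberg over all genes tested and calls at an adjusted p below 0.05. DESeq2 1.42.0, limma 3.58.1, other scalings and filters, a replicate block and leaving out each of 90 library and comparison pairs were alternatives. The fits were checked on simulated counts with 200 changed genes. Levels, intervals and figures came from Python 3.11.15 with numpy 2.4.6, pandas 2.3.3, scipy 1.17.1 and matplotlib 3.10.9. Bulk libraries held 188275 to 16888686 counts without Rn45s.

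Groups came from the sample labels, and the position and cluster of a single cell from the study's list of cells. Gene tables of the 2 antibodies were joined, with a gene absent from a table set to 0. The 7 members, the gene lists and the tests were chosen with earlier results of these data known. The members were described in every comparison, with at most 2 called genes of the largest difference from each list, the genes most like each member, and Aebp2 and Hprt as checks. Comparisons share libraries (the H3K27me3 SET-seq, in vitro and no-antibody libraries each serve in more than 1) and are not independent. The chromatin profiles were not analysed here.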

Additional observations from a re-analysis of the deposited data

Results flagged for a closer look

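In groups of 4 to 10 libraries or experiments, 11 of 61 sets of values had a sample far from the rest by Dixon's test, which chance alone gives in about 1 in 20 groups. In bulk, Kdm6a was at 46.3 CPM in replicate 1 of the H3K27me3 libraries of 1000 cells, with the other 5 at 55.6 to 57.7 CPM. Kdm5b was at 778 CPM in replicate 1 of 37 °C for 5 min, with the other 7 at 825 to 860 CPM. In replicate 2 of the libraries without antibody of 10 cells, the one with the fewest counts, Kdm6a was at 0 CPM, with the others at 20.3 to 30.4 CPM, and Kdm1a at 260.3 CPM, with the others at 400.4 to 481 CPM.

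The other 7 were single-cell experiments, given as CPM of summed passing cells. In H3K27me3 experiment 7, Kdm6b was at 57.9 CPM (0 to 6.87 CPM in the others) and Kdm5a at 59.7 CPM (0 to 20.6 CPM). In H3K4me3 experiment 5, Kdm5a was at 24.0 CPM (0.996 to 7.81 CPM) and Kdm5c at 79.2 CPM (0 to 5.37 CPM). In H3K4me3 experiment 2, Kdm6b was at 21.4 CPM (0.454 to 2.93 CPM) and Kdm1b at 36.9 CPM (0 to 5.86 CPM). Kdm1b was at 1.37 CPM in H3K27me3 experiment 5 (0 to 0.0997 CPM), which was 1 read among the 727513 of that experiment. For Kdm6b, Kdm5a, Kdm5c and Kdm1b single cells held 44.8% to 91.5% of all reads of the gene.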

How the results depend on the processing

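Of the counts of members called and the summary levels, 89 of 90 with a library left out and 66 of 70 under other settings stayed within 1.5 times; the cause of the rest was not tested. In the knockout 2 members were called against in vitro total RNA and 4 to 6 with a library left out. Of all genes, 4511 of 8655 were called against total RNA, and 4213 of 11318 to 5049 of 9321 with a library left out. Between the clones, 0 to 1 were called with a library left out and 1 with a crossed replicate block, chosen after seeing the data (Kdm1a). At 37 against 16 °C, 1 was called in the 5 min libraries, and Kdm1a had the highest level in 14 conditions by CPM without length. The signs reversed to these log2 differences. Kdm5a went to -0.36 (against in vitro total RNA) and, for Kdm1b, values were -0.50 (wild type of 10000 cells), -0.31 (KO2 alone) and -0.26 (1000 and 10000 cells, added after seeing the data) in the knockout. Kdm6b went to 0.0323 at 5 min, and in the cytoplasmic comparison Kdm6a to 0.57 (300 ng) and Kdm1b to -0.33 (37 °C, 5 min). For proximal against distal cells, Kdm5a went to -0.13 (no filter), -0.0598 (DESeq2), -0.16 (H3K4me3), -0.38 (at least 5 cells) and -0.0028 (without experiments 8 to 10, added after seeing the data), Kdm6b to 0.11 (H3K27me3), and Kdm5b to -0.12 (no experiment block) and -0.28 (limma). With a library left out, Kdm1b ran from -0.0476 to 0.46 in the knockout, Kdm5c from -0.19 to 0.27 between clones, Kdm6a from -0.48 to 0.13 in cytoplasmic against total RNA, Kdm6b from -0.0763 to 0.0812 and Kdm1b from -0.47 to 0.0201 between antibodies, and Kdm6b from -0.0346 to 0.24 and Kdm1b from -0.0395 to 0.51 with against without antibody.

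Counts of genes changed by over 1.5 times in 4 comparisons: clones, 858 to 356 (DESeq2), 1431 (crossed block) and 182 to 1361 (a library left out); temperature, 7473 to 3367 (5 min); cytoplasmic RNA, 2884 to 4795 (100 cells or more), 1199 (37 °C, 5 min), 1325 (300 ng) and 1825 to 4447 (a library left out); and position, 0 to 24 (no filter), 52 (DESeq2), 8 (all cells) and 55 (no experiment block). Residuals of same-numbered libraries correlated at -0.234 to 0.311 in the tested comparisons, with 4 of 28 pairs of temperature conditions above 0.1. The Tn5 libraries were not in this check. There Kdm5b was at 731 to 781 CPM in replicate 1 and at 374 to 391 CPM in replicate 2. With a replicate block as many members were called as without it, given here with all genes called of those tested in brackets. They were 4 in the knockout (4804 of 10869), 0 between clones (639 of 8551) and 5 for temperature (7479 of 11973). They were 7 against ligation (8496 of 12880), 4 for cytoplasmic RNA (2760 of 11871) and 0 between antibodies (0 of 11616). With antibody they were 3 (4688 of 12054), and for cell number 2 (2216 of 12054).

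Of the less abundant members 4, Kdm1b, Kdm6a, Kdm5a and Kdm5c, had no read in 1 library of 10 cells. The part of depth and of the number of cells in this was not tested. Without a filter on low counts the median log2 difference of all genes moved from 0.03 to 0.42 for 10000 against 100 cells, where Kdm5a then passed (-0.50, edgeR, adjusted p = 0.0174).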

Other observations

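Of the 15 other histone demethylases, by edgeR at an adjusted p below 0.05, 9 of 12 tested were higher and 1 lower in the Aebp2 knockout, where 22.5% of all genes tested were higher and 24.5% lower. At 37 °C 5 of 13 were higher and 3 lower, beside 32% and 31.4% of all genes. After tagmentation 1 of 13 was higher and 7 lower than by ligation, beside 33.4% and 33.1%, and in cytoplasmic RNA 0 of 13 were higher and 6 lower, beside 12.5% and 12.7%. Of the partners of the demethylases at 37 °C, 6 of 11 were higher and 1 lower, with Hdac2 at 0.85 and Rcor1 at 0.50 on the log2 scale, and Kdm4b was lower at -0.92.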
